A study of Homo sapiens with 4 samples.

Results

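The genes described here encode the ephrins, semaphorins and Slits and the receptors that bind them. They were picked by gene symbol alone: the ephrins (EFNA, EFNB) with the Eph receptors (EPHA, EPHB), the semaphorins (SEMA) with the plexins (PLXN) and neuropilins (NRP1, NRP2), and the Slits (SLIT) with the Robo receptors (ROBO). The rule found 60 of the 56306 gene rows of the count table, 31 of them ligands and 29 receptors. The ligands were 8 ephrins, 20 semaphorins and 3 Slits, and the receptors were 9 EphA and 5 EphB receptors, 9 plexins, 2 neuropilins and 4 Robo receptors.

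The counts came from bulk RNAseq of MV3 melanoma cells carrying an H2B-GFP nuclear label, a single established cell line without further treatment. Spheroids of 50000 cells were embedded in collagen I, and on day 2 the core was removed with a 1 mm punch and the invasion zone around it with a 3 mm punch. Each zone had 2 libraries, numbered 1 and 2, and the labels do not say whether the numbers are separate cultures. The p-values therefore cover no spread beyond these libraries. With so few, edgeR also draws part of each gene's spread from a trend shared by all genes. The punches cut vertically, so invading cells above and below the core could remain in the core sample. In bulk samples, fewer cells of a kind and less RNA per cell cannot be told apart.

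Guidance molecules were first known for steering growing axons and blood vessels. An ephrin is held in the membrane of one cell and binds an Eph receptor tyrosine kinase on the next, and both cells can receive a signal. Semaphorins are secreted or membrane-bound and act through plexins, and the secreted class 3 members also need a neuropilin in most cases. Slits are secreted and act through Robo receptors. All of these systems act on the cytoskeleton and on adhesion, and they are studied in melanoma because cells that touch can repel or attract one another through them.

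Library totals were 36363358 and 37591782 counts in replicate 1 (core and invasion zone) and 14983135 and 11789243 in replicate 2. Levels are given as CPM, counts relative to the TMM-scaled total over the tested genes, and differences as log2 of invasion zone over core. The guidance genes took 0.341% and 0.292% of the core counts and 0.303% and 0.231% of the invasion zone counts. Of 7 markers of the melanocyte lineage, 5 stayed under 1 CPM, among them SOX10 and TYR at 0 in every library. The 4 markers of dedifferentiated melanoma cells were mixed. AXL stood at 633 and 629 CPM in the core and at 1224 and 1121 CPM in the invasion zone. EGFR had 135 and 192 CPM in the core and 195 and 208 CPM in the invasion zone. TNC was lower in the invasion zone, at 139 and 86.6 CPM against 242 and 199 CPM, and NGFR stayed under 1 CPM. Defining markers of keratinocytes stayed under 1 CPM, as did 3 of 4 leukocyte and 3 of 4 endothelial markers. The exceptions were CD14, at most 1.37 CPM, and PECAM1, with 18.1 and 7.43 CPM in the core and 5.23 and 0.926 CPM in the invasion zone.

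Upstream sequences are shown for 3 ephrin genes, those called lower with the replicate block that had an entry in the sequence source. SEMA5A and PLXNA3 had lower log2 fold changes than EFNA3, at -1.48 and -1.5 against -1.33, and are not shown. Each run holds the 250 bases before the RefSeq start on GRCh38.p14, 5′ to 3′ on the gene's strand, and capitals mark the core of the hypoxia response element, searched as ACGTG and GCGTG on both strands (CACGT and CACGC when read from the other strand). ACGTG and CACGT overlap where a window holds CACGTG.
EFNA1, chr1:155127626-155127875, plus strand: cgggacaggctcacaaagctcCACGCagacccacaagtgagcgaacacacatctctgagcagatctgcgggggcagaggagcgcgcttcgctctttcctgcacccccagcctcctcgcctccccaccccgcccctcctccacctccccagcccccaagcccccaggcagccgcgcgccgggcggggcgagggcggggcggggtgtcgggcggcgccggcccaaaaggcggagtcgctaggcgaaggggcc
EFNA3, chr1:155078587-155078836, plus strand: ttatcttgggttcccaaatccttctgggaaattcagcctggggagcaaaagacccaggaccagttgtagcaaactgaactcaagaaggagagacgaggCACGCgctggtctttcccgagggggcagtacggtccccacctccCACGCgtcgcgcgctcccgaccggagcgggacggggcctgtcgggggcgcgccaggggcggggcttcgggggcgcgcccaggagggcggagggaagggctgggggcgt
EFNB2, chr13:106535663-106535912, minus strand: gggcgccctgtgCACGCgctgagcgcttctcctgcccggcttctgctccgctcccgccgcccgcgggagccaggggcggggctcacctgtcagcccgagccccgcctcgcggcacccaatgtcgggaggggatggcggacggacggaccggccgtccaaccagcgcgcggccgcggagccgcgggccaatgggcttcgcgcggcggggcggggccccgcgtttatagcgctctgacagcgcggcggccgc
The EFNA1 and EFNB2 windows held 1 match each and the EFNA3 window held 2. Of all 35116 windows of this length, 43.2% held at least 1 match, and of the 85 windows of 54 guidance genes 49.4% did, so a match is common. Of 9 windows of members called lower with the block, 4 (44.4%) held a match, and the windows of SEMA5A, SEMA6C, PLXNA3 and PLXNB1 held none. The windows were rich in G and C, with 73.2%, 67.6% and 78.4% for EFNA1, EFNA3 and EFNB2, against a median of 58.0% over all windows. EFNB3 and SEMA6B, also called lower with the block, had no entry.

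Of the 60 guidance genes, 44 had enough counts to be tested, 23 ligands and 21 receptors. The other 16 had at most 8 counts in any library, and 4 of them, EFNA2, EPHA3, EPHA10 and ROBO2, had none. The levels of the tested members spanned several orders of magnitude. Per kb of exon, the highest level was that of NRP1, the neuropilin that serves class 3 semaphorins and VEGF, with 98.6 and 87.8 CPM per kb in the core and 106.0 and 82.9 in the invasion zone. EPHA2, an Eph receptor often high in carcinoma and melanoma, followed with 39.4 and 34.9 CPM per kb in the core and 49.6 and 41.6 in the invasion zone. PLXNA1, a signalling partner of neuropilins, had 42.8 and 29 CPM per kb in the core and 32.6 and 16.5 in the invasion zone. NRP1 stood above every other member in all 4 libraries. With the longest transcript as the length, NRP1 was again highest, at 182.5 CPM per kb in the core, and PLXNA1, SEMA3C and SEMA4B lay above EPHA2 there, at 43.3, 43.4 and 39.8 against 39.0. EPHA2, PLXNA1, SEMA3C and PLXNB2 lay within each other's spread in the core, at means of 37.2, 35.9, 34.7 and 31.2 CPM per kb. In the invasion zone EPHA2 separated from them, at 45.6 against 24.6, 20.8 and 19.1 CPM per kb.

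**Figure D1:**
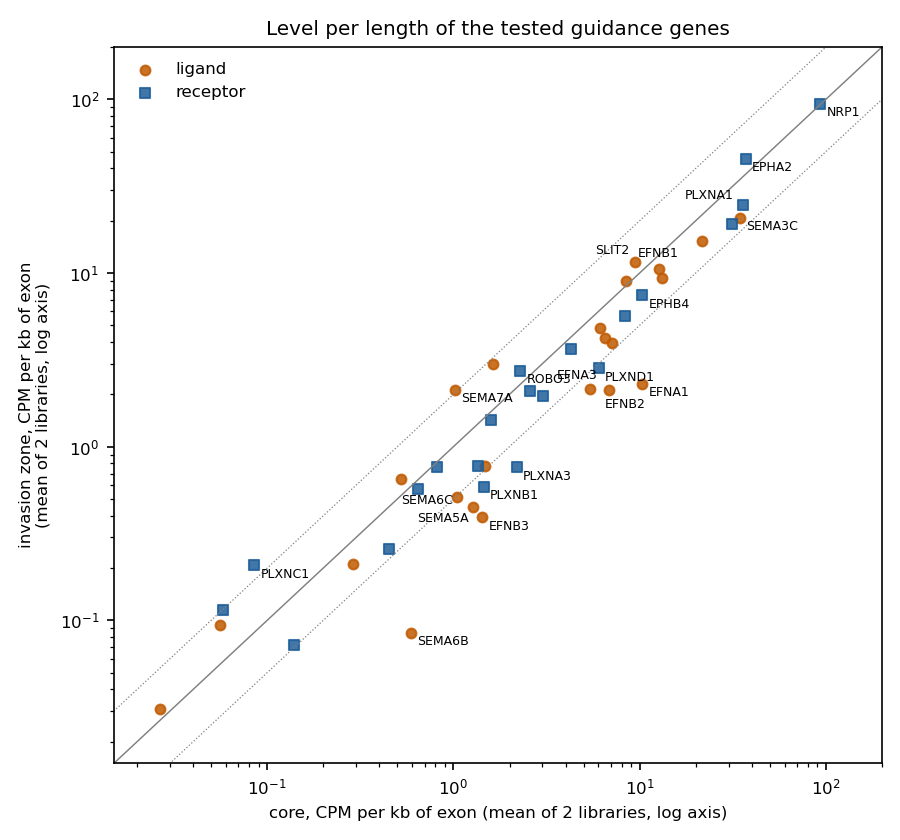
Level per length of the 44 tested guidance genes, as CPM per kb of exon, with the mean of the 2 core libraries on the x axis and of the 2 invasion zone libraries on the y axis, both log axes; circles are ligands, squares are receptors, the solid line marks equal levels and the dotted lines a 2-fold difference. NRP1 lies highest and near the line of equality (93.2 and 94.4), whereas the 10 members called lower with the replicate block, EFNA1 among them (10.3 and 2.3), lie below the lower dotted line.

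The comparison of the zones asked which guidance genes differed in level between the invasion zone and the core. In edgeR's quasi-likelihood test without a replicate term, none of the 44 members passed an adjusted p of 0.05 with a 2-fold change, as for all 15529 genes (0% called higher, 0% called lower), and the smallest adjusted p of a member was 0.128. By unadjusted p (under 0.05, same fold), 9 members were lower and 1 was higher in the invasion zone, where the background is 5.85% lower and 2.92% higher. When the replicate number entered as a block, 10 of 44 members (22.7%) were called lower and 1 (2.27%) higher at an adjusted p under 0.05, against 7.06% and 3.41% of all genes. These were EFNA1, EFNA3, EFNB2, EFNB3, SEMA5A, SEMA6B, SEMA6C, PLXNA3, PLXNB1 and PLXND1 on the lower side and SEMA7A on the higher side. DESeq2 without a block called 8 of the 10 lower, all but SEMA6B and SEMA6C, and none higher, among 40 members with an adjusted p, with a background of 4.37% lower and 2.89% higher. By unadjusted p, DESeq2 called 9 lower and 1 higher, with a background of 5.41% lower and 2.86% higher.

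Most members lay on the same side. The log2 fold change was negative for 32 of 44 members and positive for 12, with a median of -0.505 against -0.009 over all genes. Within replicate 1 the median log2 ratio of the members was -0.378, and within replicate 2 it was -0.564. Both invasion zone libraries were below both core libraries for 25 members (56.8%; background 30.3%) and above them for 6 (13.6%; background 28.1%). With the block and no fold minimum, 23 members were lower and 4 higher at an adjusted p under 0.05, where 19.4% of all genes were lower and 19.4% higher.

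**Figure D2:**
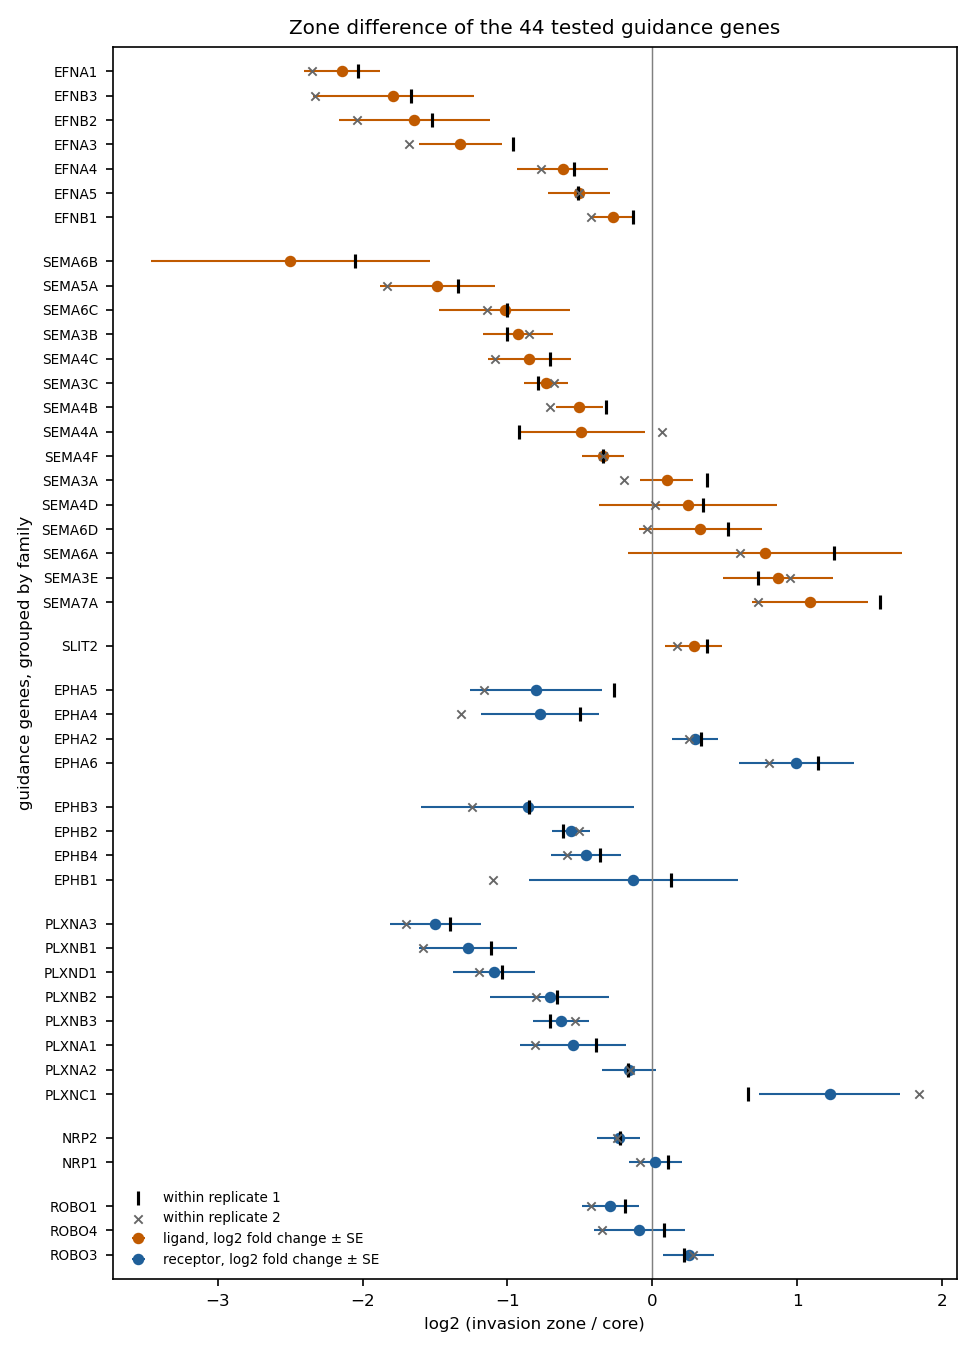
Log2 ratio of invasion zone to core (x axis) for the 44 tested guidance genes, grouped by family from top to bottom; points with bars are edgeR log2 fold changes ± SE from 2 libraries per zone, ticks the ratio within replicate 1 and crosses within replicate 2 (none for SEMA6B, which had no count in invasion zone replicate 2). All 7 tested ephrins lie left of 0 in both replicates, without the GC correction that turns EFNB1, whereas semaphorins spread from -2.50 for SEMA6B to 1.09 for SEMA7A.

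As tested, ligands and receptors had similar medians, -0.507 for 23 ligands and -0.457 for 21 receptors. This difference of -0.05 was much smaller than the spread among the members of either. With a correction for GC content and length the medians lay farther apart, at -0.463 for the ligands and -0.129 for the receptors. Among the ligands 16 were negative and 7 positive, and among the receptors 16 were negative and 5 positive. With the block, 7 ligands (30.4%) were called lower and 1 (4.35%) higher, and 3 receptors (14.3%) lower and none higher. The background was 7.06% lower and 3.41% higher. Family medians ran from -1.33 for the ephrins and -0.67 for the plexins to -0.09 for the Robo receptors. SLIT2, the 1 Slit tested, had 0.29. Families held 1 to 15 tested genes, and medians of so few vary more than those of the roles. Whether the families differed more than the roles was not tested.

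The ephrins were the family with the lowest median. All 7 tested ephrins had a lower level in both invasion zone libraries than in both core libraries (100%, background 30.3%). With the block, 4 were called lower (57.1%, background 7.06%). EFNA1, a membrane-anchored ligand that binds EPHA2, had 24.2 and 20.6 CPM in the core and 5.92 and 4.04 CPM in the invasion zone. Its log2 fold change was -2.14 (SE 0.26, adjusted p = 0.128), with an adjusted p of 7.53e-05 in the block. The zones were far apart, and each invasion zone library was well under either core library. EFNA1 is also a gene that the study named on these samples, so its direction here is no independent evidence. EFNA3, another ligand of EphA receptors, had 8.63 and 12.4 CPM in the core and 4.43 and 3.87 CPM in the invasion zone, which gave a log2 difference of -1.33 (SE 0.29, adjusted p = 0.13, and 0.0031 with the block). The difference was larger in replicate 2, at -1.68, than in replicate 1, at -0.96.

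EFNB2, the transmembrane ligand of EPHB4 best known from arteries, had 44.3 and 23.8 CPM in the core and 15.5 and 5.81 CPM in the invasion zone. The log2 difference was -1.64 (SE 0.52, adjusted p = 0.158, and 0.000113 with the block). The levels of replicate 1 were higher in both zones, and the ratios within the replicates were -1.52 and -2.04. EFNB3, another B-type ephrin, was low, with 5.84 and 3.38 CPM in the core and 1.84 and 0.673 CPM in the invasion zone, the last resting on 8 counts. This gave a log2 fold change of -1.79 (SE 0.56, adjusted p = 0.156, and 0.00199 with the block). Averaged over both zones, EFNB1 had the highest level of the ephrins per kb of exon. EFNA5 was higher in the core, at 13.2 against 12.7 CPM per kb, and ranked higher with the longest transcript as the length. EFNB1 had a small difference, with 40.3 and 43.4 CPM in the core and 36.9 and 32.4 CPM in the invasion zone. Its log2 fold change was -0.27 (SE 0.15, adjusted p = 0.335, and 0.0963 with the block), and it turned to 0.02 with a correction for GC content and length. EFNA4 had a log2 fold change of -0.62 and EFNA5 of -0.51, neither reaching 2-fold.

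EFNA4, EFNA3 and EFNA1 lie next to each other in this order on the plus strand of chromosome 1, between 155063737 and 155134899 on GRCh38. The log2 fold changes along this stretch were -0.62, -1.33 and -2.14. Of the nearest neighbours, ADAM15 before EFNA4 had 0.24, and SLC50A1 and DPM3 after EFNA1 had -0.30 and -0.35. Farther before ADAM15, DCST1 had -0.69 and DCST2 -3.56, the latter from 24 and 14 counts in the core and 2 and 1 in the invasion zone. A readthrough transcript joins EFNA4 and EFNA3 and shares 853 of the 1944 exon bases of EFNA3, where reads could not be assigned to 1 gene, and its own row held no counts. EFNB2 shares 1822 of its 5005 exon bases with a gene on the opposite strand, and the strand setting of the counting is not given in the sources used here.

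**Figure D3:**
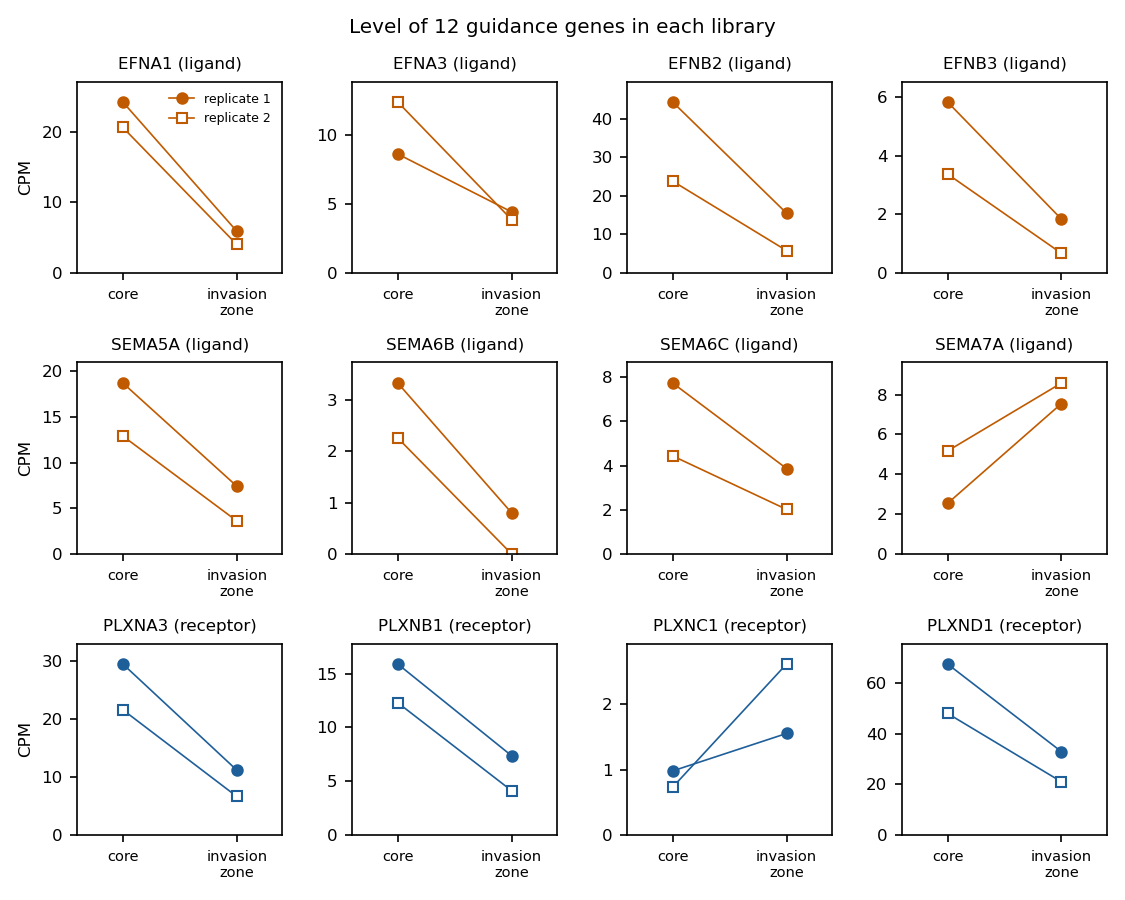
CPM (y axis, from 0) of 12 guidance genes in the core and the invasion zone; filled circles are replicate 1, open squares replicate 2, and lines join libraries of the same number. EFNA1 goes from 24.2 and 20.6 CPM to 5.92 and 4.04 CPM, and SEMA7A and PLXNC1 are the 2 genes with lines that rise.

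Of the 8 tested Eph receptors, 6 had a negative log2 fold change and 2 a positive one, with a median of -0.51 and a range from -0.86 to 0.99, and all 4 EphB receptors were negative. EdgeR called none at 2-fold over all 4 libraries, with or without the block. EPHA6 was called higher by limma voom with the block, and EPHA4 was called lower by edgeR without invasion zone replicate 1. The difference between Eph receptors and ephrins was not tested. EPHA2 was above the core in both invasion zone libraries, with 163 and 145 CPM in the core and 205 and 172 CPM in the invasion zone, which gave a log2 difference of 0.30 (SE 0.16, adjusted p = 0.314, and 0.0148 with the block). The ratio was alike in both replicates, at 0.33 and 0.25, and the difference became 0.61 with the GC and length correction. EPHB4, the receptor of EFNB2, had 73.8 and 58.2 CPM in the core and 57.4 and 38.6 CPM in the invasion zone. Its log2 fold change was -0.46 (SE 0.24, adjusted p = 0.307, and 0.00621 with the block). Each invasion zone library was below both core libraries, but replicate 1, at 57.4 CPM, was only just below the lower core library, at 58.2 CPM. With the GC and length correction the log2 fold change of EPHB4 became -0.12, and the adjusted p with the block 0.461. EPHB2 had a log2 fold change of -0.56, EPHA4 of -0.77 and EPHA5 of -0.80, while EPHA6, at 1.06 CPM in both core libraries, had 0.99. Within the ligand and receptor pairs named here, the differences were -2.14 for EFNA1 beside 0.30 for EPHA2, and -1.64 for EFNB2 beside -0.46 for EPHB4. These pairs leave out the other A-type ephrins, and EFNA1 was not the most abundant of that type. EFNA5 averaged 75.9 (core) and 53.3 CPM (invasion zone), a log2 fold change of -0.51, while EFNA1 averaged 22.4 and 4.98 CPM. The pairs therefore do not give the change in all ligands of EPHA2.

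Among the semaphorins, 9 of 15 tested members were negative and 6 positive. The block called 3 lower (20%, background 7.06%) and 1 higher (6.67%, background 3.41%). All of the semaphorins called with the block belong to classes 5 to 7. SEMA5A, a class 5 semaphorin with thrombospondin repeats, had 18.7 and 12.9 CPM in the core and 7.42 and 3.62 CPM in the invasion zone, which gave a log2 difference of -1.48 (SE 0.40, adjusted p = 0.138, and 0.000418 with the block). SEMA6B, a ligand of A-type plexins, had 3.33 and 2.26 CPM in the core and 0.801 and 0 CPM in the invasion zone. In replicate 2 it was at least 8.93-fold lower, taking 3 counts as the floor of that library. The log2 difference was -2.50 (SE 0.96, adjusted p = 0.197, and 0.00755 with the block), with 30 counts in all in the invasion zone. SEMA6C, of the same class, had 7.74 and 4.44 CPM in the core and 3.87 and 2.02 CPM in the invasion zone. This gave a log2 fold change of -1.02 (SE 0.45, adjusted p = 0.236, and 0.0091 with the block), just past the 2-fold limit, and the call was not made by DESeq2 or with the block and a correction for GC content and length.

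SEMA7A, a semaphorin anchored by a lipid that binds PLXNC1 and integrins, went the other way. It had 2.54 and 5.17 CPM in the core and 7.55 and 8.58 CPM in the invasion zone, so the zones did not overlap. Its log2 fold change was 1.09 (SE 0.40, adjusted p = 0.185, and 0.00747 with the block), and the ratio was larger in replicate 1, at 1.57, than in replicate 2, at 0.73. PLXNC1, its plexin receptor, was scarce but also above the core, with 0.978 and 0.73 CPM there and 1.55 and 2.61 CPM in the invasion zone. The log2 fold change of PLXNC1 was 1.23 (SE 0.49, adjusted p = 0.206, and 0.0675 with the block), so it was not called, and it rested on 11 to 58 counts per library.

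The secreted class 3 semaphorins were mixed. SEMA3C, the semaphorin with the highest level per length, had 229 and 194 CPM in the core and 133 and 121 CPM in the invasion zone. Its log2 fold change was -0.74 (SE 0.15, adjusted p = 0.128, and 0.000206 with the block), below 2-fold. SEMA3B had a log2 fold change of -0.93 and SEMA3E, which binds PLXND1 without a neuropilin, of 0.87. SEMA3A, the repellent for which the class was first described, overlapped between zones, at 0.10. Of the class 4 members, SEMA4C had -0.85, SEMA4B -0.50, SEMA4A -0.49, SEMA4F -0.34 and SEMA4D 0.25. None of the tested class 3 and class 4 members reached 2-fold.

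Of the 8 tested plexins, 7 had a negative log2 fold change and 3 were called lower with the block (37.5%, background 7.06%). PLXNA3, an A-type plexin that signals for class 3 semaphorins, had 29.5 and 21.6 CPM in the core and 11.2 and 6.65 CPM in the invasion zone, which gave a log2 difference of -1.5 (SE 0.32, adjusted p = 0.129, and 0.000159 with the block). Both invasion zone libraries were well below both core libraries. PLXNB1, the receptor of SEMA4D, had 15.9 and 12.3 CPM in the core and 7.37 and 4.12 CPM in the invasion zone, which gave a log2 difference of -1.27 (SE 0.34, adjusted p = 0.137, and 0.00095 with the block). SEMA4D itself was scarce, at most 0.534 CPM. PLXND1, the receptor of SEMA3E, had 67.5 and 48.0 CPM in the core and 32.9 and 21.0 CPM in the invasion zone, which gave a log2 difference of -1.09 (SE 0.28, adjusted p = 0.135, and 0.000136 with the block). Here ligand and receptor lay on opposite sides, with 0.87 for SEMA3E and -1.09 for PLXND1. SEMA3E stayed below 2-fold (adjusted p = 0.233, and 0.00154 with the block) and was not called with or without the block.

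PLXNA1, the plexin with the highest level per length, had 481 and 326 CPM in the core and 366 and 186 CPM in the invasion zone, and the zones overlapped, with replicate 1 higher in both. The log2 difference was -0.55 (SE 0.37, adjusted p = 0.407, and 0.00193 with the block). The value depended on the processing, at -0.13 with the GC and length correction, where the adjusted p with the block was 0.255, and from -1.12 without invasion zone replicate 1, where PLXNA1 was called lower, to -0.14 without invasion zone replicate 2. PLXNB2, the receptor of SEMA4C, had a log2 fold change of -0.71 beside -0.85 for its ligand, PLXNB3 had -0.63 and PLXNA2 had -0.16.

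None of the tested neuropilin, Slit and Robo genes reached a 2-fold difference. NRP1 had 1136 and 1012 CPM in the core and 1221 and 955 CPM in the invasion zone, and its log2 fold change of 0.02 (SE 0.18, adjusted p = 0.963, and 0.925 with the block) was well within the spread between libraries. Its sign changed with the scaling. NRP2 had a log2 fold change of -0.23. SLIT2, a secreted ligand of ROBO1, had 113 and 96.3 CPM in the core and 147 and 108 CPM in the invasion zone, with overlapping zones and a log2 fold change of 0.29 (SE 0.20, adjusted p = 0.417, and 0.033 with the block). It was 0.52 with the GC and length correction, and 0.05 without invasion zone replicate 1 to 0.49 without invasion zone replicate 2. ROBO3, the Robo receptor with the highest level per length over both zones, had 15.5 and 16.4 CPM in the core and 18.1 and 20.0 CPM in the invasion zone. This gave a log2 fold change of 0.25 (SE 0.18, adjusted p = 0.428, and 0.182 with the block), and it became 0.63 with the GC and length correction, where the adjusted p with the block was 0.000655. ROBO1 had -0.29 and ROBO4 -0.09.

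GC content moved with these differences. The tested members had a median GC content of 56.6% and a median transcript length of 5.51 kb, against 48.1% and 2.82 kb over all tested genes. When a trend with GC content and length was removed from each library, the median log2 fold change of the members went from -0.505 to -0.195, and that of all genes to 0.077. The receptors went from -0.457 to -0.129, the ligands from -0.51 to -0.46 and the ephrins from -1.33 to -1.05. Of the 32 negative members 4 became positive, EFNB1, EPHB1, PLXNA2 and ROBO4. With both the block and the correction, 6 members were called lower, EFNA1, EFNB2, EFNB3, SEMA5A, SEMA6B and PLXNA3, and 2 higher, SEMA7A and PLXNC1, against 6.53% lower and 5.06% higher among all genes. Over all genes, the share of calls on the higher side was 32.6% with the block alone and 43.6% with the correction added. EFNA3, PLXNB1, PLXND1 and SEMA6C came under the 2-fold limit, at -0.995, -0.954, -0.76 and -0.72, with adjusted p still under 0.05.

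**Figure D4:**
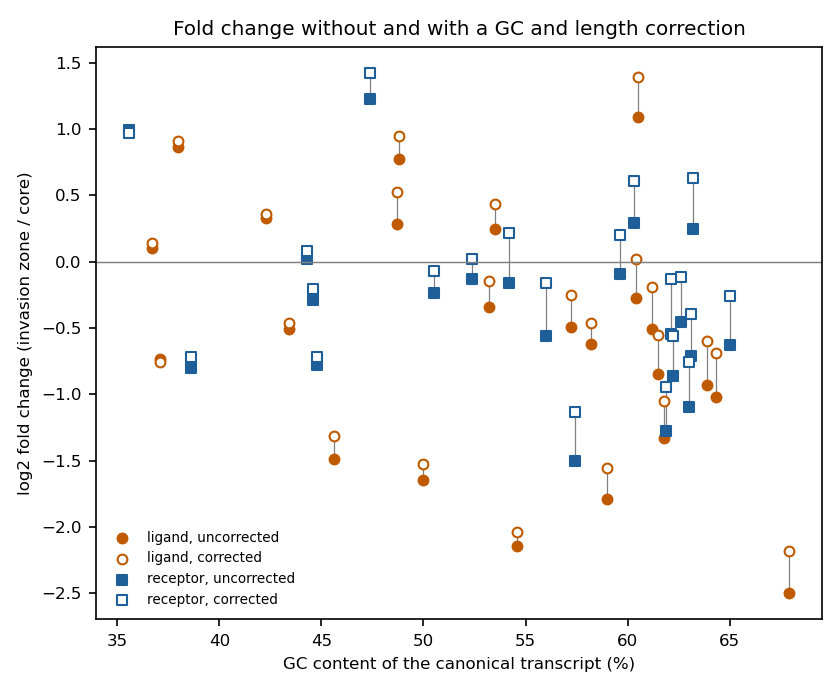
Log2 fold change (y axis) of the 44 tested guidance genes against the GC content of the canonical transcript in percent (x axis), before (filled) and after (open) a GC and length correction, circles for ligands and squares for receptors. The gap between filled and open marks is wider at high than at low GC content, and EFNB1, EPHB1, PLXNA2 and ROBO4 cross 0, whereas EFNA1 goes from -2.14 to -2.04.

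Genes that act in the same pathways were taken from a list of 45 netrins, netrin receptors and intracellular partners, of which 34 were tested. Without a block none passed the adjusted p, at an unadjusted p 5 were lower and none higher, and with the block 5 (14.7%) were lower and none higher by adjusted p with a 2-fold change, beside the 5.85% and 7.06% of all genes lower by these rules. The median log2 fold change was -0.096, with 21 genes negative and 13 positive. UNC5B, a netrin receptor, had 61.9 and 32.2 CPM in the core and 12.6 and 2.10 CPM in the invasion zone, which gave a log2 difference of -2.59. UNC5A, a receptor of the same kind, had -2.17 but was scarce, with 28 and 8 counts in the core and 5 and 2 in the invasion zone. NTNG2, a membrane-anchored netrin relative, had -1.65, and DPYSL2, a tubulin-binding mediator of semaphorin signals, -1.03. By group, the median was -0.98 for 5 tested netrin receptors, -0.23 for 9 partners of Eph receptors and ephrins, -0.11 for 5 netrins and relatives, 0.05 for 10 partners of semaphorins and plexins and -0.02 for 5 partners of Slit and Robo.

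Other gene groups moved with the zones too. Of 9 tested genes that respond to low oxygen, all 9 were below the core in both invasion zone libraries (background 30.3%). With the block, 7 were called lower (77.8%, background 7.06%). The summed level of this group was 3577 to 3929 CPM in the core and 1302 to 1593 CPM in the invasion zone. Of 10 proliferation genes, all 10 were above the core (background 28.1%), and 8 were called higher with the block (80%, background 3.41%). The summed level of these genes was 615 to 1200 CPM in the core and 1861 to 2292 CPM in the invasion zone. Both lists were chosen with earlier results of these data known, and each holds genes that the study named on these samples. Their shares are therefore no independent evidence. The part of either group in the guidance gene differences was not tested.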

How the data were processed

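Bulk RNAseq was done on 4 libraries, 2 for each zone of the MV3 spheroids. The deposited values are raw counts per gene without normalization. To make them, the authors used Bowtie to take out ribosomal RNA reads, kept reads of a quality score above 15, aligned to hg38 with STAR and counted uniquely mapped reads with HTSeq. The sources used here give no versions, annotation or strand setting. The cDNA was amplified without molecular identifiers, so floors cover counting error only.

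Of 56306 rows, 2 repeats without counts were dropped. In R 4.3.3, edgeR 4.0.16 with filterByExpr (10 counts in at least 2 libraries, 15 in total) kept 15529 genes, scaled by TMM. The zones were compared by the quasi-likelihood test without a replicate term, and calls needed a Benjamini-Hochberg adjusted p under 0.05 over all tested genes and a 2-fold change. Standard errors were derived from the F statistic. The alternatives were DESeq2 1.42.0, limma 3.58.1 voom, other scalings, filters and thresholds, a replicate block, a loess correction (span 0.5) for GC content and length, thinning, and leaving out each library. The procedure was tested on simulated data. The methods take each core with its corresponding invasion zone, so libraries of the same number were treated as pairs in the block, although no source says that the number marks a shared spheroid. Over 2 pairs, libraries of the same number deviated together from the zone means (correlation 0.584 across all tested genes, 0.68 across the members). Both libraries of replicate 1 were also deeper, so a shared spheroid and a shared depth cannot be told apart by this correlation. Replicates of a zone differed beyond counting noise (chi-square per degree of freedom 37.9 and 35.2).

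Positions and lengths came from GENCODE release 44, which held 98.1% of the row identifiers and all 60 members, and upstream sequences from RefSeq. Members, lists and the motif were chosen with earlier results of these data known. Values per library are given for members called with or without the block, members at least 2-fold apart without overlap of the zones, and the member with the highest level per kb of merged exons in each family. Other pathway genes are named where past an unadjusted p under 0.05 and 2-fold, since none was called without the block; 1 of these is not reported here by itself. Figures were drawn with matplotlib 3.10.9.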

Additional observations from a re-analysis of the deposited data

How the results depend on the processing

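With 2 libraries per zone, the calls depend on the replicate term. Over all genes, edgeR called 0 higher and 0 lower as set, and 530 and 1097 with the replicate block; the members were 1 higher and 10 lower with the block. Without a low-count filter 427 and 846 genes and 1 and 9 members were called. DESeq2 called 353 and 534 genes and 8 members lower, and at an unadjusted p 444 and 840 genes with 1 and 9 members, while edgeR at an unadjusted p gave 454 and 909 genes with 1 and 9 members. The block with the GC and length correction gave 779 and 1006 genes with 2 and 6 members. In that fit and without the filter edgeR's prior degrees of freedom were infinite, so the spread came from a trend shared by all genes. The prior degrees of freedom were 3.39 as set and 7.6 with the block alone, so the block's p-values leaned more on that trend. Of the fits added after seeing the data, DESeq2 with the block called 428 and 750 genes (1 and 9 members), limma voom with the block 575 and 1088 (2 and 10), the block on libraries thinned to the smallest total 455 and 916 (1 and 9), and the block without a fold minimum 3010 and 3009 (4 and 23). Upper-quartile and RLE scaling, a minimum of 10 counts per library, limma voom, thinning, the correction alone and adjusted p without a fold minimum, all without a block, called no member.

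Leaving out 1 library gave 0 to 555 genes higher and 4 to 1119 lower, and 0 to 1 members higher and 0 to 13 lower. The members' calls were 13 lower and 1 higher without invasion zone replicate 1, EFNA1 alone without core replicate 2 or invasion zone replicate 2, and none without core replicate 1. These fits assume that the lone library varies like the other zone. The members' median ranged from -0.688 to -0.292, that of the ligands from -0.744 to -0.37 and that of the receptors from -0.686 to -0.232. The members' median was -0.195 and the receptors' -0.129 with the GC and length correction, and -0.194 and -0.135 with the block added; thinning moved the ligands' median to -0.693, and to -0.646 with the block. NRP1 changed sign with upper-quartile scaling (-0.013) and a minimum of 10 counts per library (-0.004), and ran from -0.169 to 0.186 when 1 library was left out (-0.052 without core replicate 2, -0.169 without replicate 1 of the invasion zone). EFNB1 changed sign with the correction (0.018, and 0.024 with the block). Except for the correction's and the filter's own construction, the cause was not tested. Depth limits members under about 1 CPM, where replicate 2 holds few counts.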
